A study of Mus musculus with 12 samples.

Results

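The genes described here are 6 matrix metalloproteinases (MMPs), *Mmp2*, *Mmp3*, *Mmp9*, *Mmp12*, *Mmp14* and *Mmp19*, and the 4 tissue inhibitors of metalloproteinases (TIMPs), *Timp1*, *Timp2*, *Timp3* and *Timp4*. They were taken by gene name, with no threshold on a measured value, from a family picked when earlier results of these data were known, and are 10 of the 22855 genes with a value in the table. All 10 passed the filter on low values, which 12760 genes passed. Expression was measured by mRNA sequencing of epididymal white adipose tissue (eWAT), the fat pad beside the epididymis, in male C57BL/6J mice. The mice entered the diets at 5 weeks of age and were 21 weeks old after 16 weeks of feeding. Mice of the ND group ate a normal diet and mice of the HFD group a high-fat diet. The CLE group ate the high-fat diet with an ethanol extract of chrysanthemum leaf at 1.5% of diet weight, and the LU group ate it with luteolin at 0.003% of diet weight, which is a flavonoid that the leaf extract also contains. From each group 3 mice per group, described in the study's methods as representative, were sequenced. Each library was made from whole tissue, so fewer cells of a type and less RNA per cell cannot be told apart in any value below. The column taken as ND mouse 4 is headed MD4 in the table and was matched to that mouse by its number, by a letter R that its title shares and by its place among the ND columns. A letter R is part of 4 titles, those of mice 3 and 4 of the ND group, mouse 4 of the CLE group and mouse 2 of the LU group. The headers of these 4 columns also end in the same 6-digit number, which no other column used here has. Neither is explained, and no HFD library has them, so values without these 4 libraries are given where they change a call.

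MMPs are zinc-dependent endopeptidases that cut collagens, elastin, laminins and other proteins of the extracellular matrix, and most of them are made as inactive proenzymes. TIMPs bind the active site of MMPs and block it, and *Timp2* also takes part in the activation of pro-MMP2 at the cell surface together with the membrane-bound protease encoded by *Mmp14*. In fat tissue these proteins are known for remodelling of the matrix around growing adipocytes and new vessels, and macrophages and stromal cells as well as adipocytes can make them.

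The start sites of members that moved in opposite directions between diets are shown first, because 7 of the members have a promoter in the RefSeq sequence table for GRCm38.p6. They had 8 start sites there, since *Mmp12* had 2. The 250 bases before the start are printed 5′ to 3′ on the gene's strand for 3 genes that were higher in the HFD group and for *Timp4*, which was lower. Capitals mark matches to the AP-1 motif TGANTCA, the TATA box TATAAA and the Sp1 box GGGCGG, each searched on both strands. No 2 of these motifs share letters in a printed match.
*Mmp12*, second start, chr9:7347124-7347373, plus strand: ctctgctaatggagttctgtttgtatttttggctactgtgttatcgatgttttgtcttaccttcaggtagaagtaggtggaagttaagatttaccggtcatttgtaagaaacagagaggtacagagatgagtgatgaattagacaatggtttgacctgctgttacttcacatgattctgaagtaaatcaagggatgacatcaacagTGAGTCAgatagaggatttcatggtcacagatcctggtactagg
*Mmp3*, chr9:7445572-7445821, plus strand: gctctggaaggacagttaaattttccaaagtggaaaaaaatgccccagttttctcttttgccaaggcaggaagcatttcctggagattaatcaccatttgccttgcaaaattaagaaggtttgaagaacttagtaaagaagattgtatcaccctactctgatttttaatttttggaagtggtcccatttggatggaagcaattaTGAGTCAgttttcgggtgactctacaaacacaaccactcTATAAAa
*Timp1*, chrX:20869916-20870165, plus strand: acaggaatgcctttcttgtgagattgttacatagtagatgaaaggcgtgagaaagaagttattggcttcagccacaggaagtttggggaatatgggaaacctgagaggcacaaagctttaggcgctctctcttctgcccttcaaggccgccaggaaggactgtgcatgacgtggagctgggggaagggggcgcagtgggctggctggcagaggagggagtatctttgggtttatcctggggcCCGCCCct
*Timp4*, chr6:115252206-115252455, minus strand: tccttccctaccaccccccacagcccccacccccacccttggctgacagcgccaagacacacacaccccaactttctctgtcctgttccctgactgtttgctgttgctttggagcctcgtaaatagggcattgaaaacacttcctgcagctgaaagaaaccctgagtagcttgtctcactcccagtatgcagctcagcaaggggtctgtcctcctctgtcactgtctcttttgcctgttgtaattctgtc

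The AP-1 match began 44 bases before the second *Mmp12* start and 46 bases before the *Mmp3* start. These 2 of the 8 member windows held the AP-1 motif, against 6.75% of 32851 RefSeq promoters of the same length. The TATA box letters were in 1 of the 8 windows (*Mmp3*), beginning 7 bases before the start, against 12.4% of all promoters. The Sp1 box was in 4 of the 8 windows (*Mmp14*, *Timp1*, *Timp2* and *Timp3*), against 32.7% of all promoters. The *Timp4* window and the window of the first *Mmp12* start, which is not printed, held none of the 3 motifs. The *Mmp12* transcript row ENSMUST00000120655 begins directly after that first window and had 124 to 177 FPKM in HFD mice. These matches describe letters only, and binding was not measured.

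Values are given in FPKM, a measure of fragments scaled to transcript length and to library size, summed over the transcript rows of a gene. Levels can therefore be compared between genes. The 12 libraries summed to between 434360 and 454257 FPKM over all genes, and pairs of mice within a group correlated across genes at r = 0.978 to 0.991. The number of reads behind a value is not known from this table, so no counting error is given. A gene was called higher or lower when limma, fitted to log2(FPKM + 1) of all tested genes in the 12 libraries, gave an adjusted p (Benjamini-Hochberg) under 0.05 together with a change of more than 1.5-fold on that scale. That scale understates the fold of genes near or under 1 FPKM, so the ratio of mean FPKM is given as well for *Mmp3*, *Mmp9* and *Timp1*. An exact permutation test of 3 mice against 3 cannot go below p = 0.1, which every member reached in the comparison of the HFD with the ND group and in those of both supplemented groups with the HFD group.

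In ND mice *Timp2*, *Timp3* and *Timp4* were each more abundant than any of the proteases, and *Timp1* was not. Mean levels (± SD, n = 3) were 145 ± 6.53 FPKM for *Timp4*, 124 ± 41.9 FPKM for *Timp3* and 106 ± 5.29 FPKM for *Timp2*, and the range of *Timp3* overlapped those of both others. *Mmp14* (19.9 ± 3.13 FPKM) and *Mmp2* (17.01 ± 5.41 FPKM) came next and overlapped, followed by *Mmp19* (8.28 ± 1.44 FPKM). *Mmp12* and *Mmp9* overlapped at 3.40 ± 1.38 and 3.13 ± 0.712 FPKM, and *Timp1* and *Mmp3* were lowest, overlapping at 1.18 ± 0.619 and 0.637 ± 0.202 FPKM. In HFD mice *Mmp12* came first with 439.96 ± 76.9 FPKM, above every *Timp2* value (204 ± 30.6 FPKM). *Timp4* (70.1 ± 10.7 FPKM), *Timp3* (67.7 ± 11.4 FPKM) and *Mmp2* (52.7 ± 7.77 FPKM) followed, each overlapping the next except that *Mmp2* did not reach *Timp4*. *Mmp9* was lowest there, at 0.633 ± 0.149 FPKM.

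The largest MMP change was that of *Mmp12* (chr9:7344381-7369499), which encodes macrophage elastase. Its level was 2.06, 3.33 and 4.82 FPKM in ND mice 2, 3 and 4, and 526, 415 and 379 FPKM in HFD mice 12, 15 and 18. It was 21.6, 41.0 and 205 FPKM in CLE mice 2, 4 and 11, and 89.9, 59.6 and 147 FPKM in LU mice 2, 3 and 8. The 4 groups fell into 3 ranges that did not overlap, with ND lowest, HFD highest and the CLE and LU mice between them and overlapping each other. Within the CLE group, mouse 11 was far above mice 2 and 4. On the log2(FPKM + 1) scale *Mmp12* was higher by 6.68 ± 0.63 (SE) in the HFD than in the ND group (limma, adjusted p = 7.9e-06), and the mean FPKM was 129-fold higher. Compared with the HFD group, it was lower by a log2 difference of -2.91 ± 0.63 in the CLE group (adjusted p = 0.0045) and of -2.22 ± 0.63 in the LU group (adjusted p = 0.023). The call in the LU group was lost when HFD mouse 12, 15 or 18 or LU mouse 2 or 3 was left out, with adjusted p of 0.076, 0.056, 0.051, 0.059 and 0.088. In the 8 libraries without the letter R the difference was -2.68 in CLE mice (adjusted p = 0.055) and -2.20 in LU mice (adjusted p = 0.10), neither of which passed the test. The direction stayed the same in each of these fits.

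*Mmp3* (chr9:7445822-7455975), or stromelysin 1, cuts proteoglycans and laminin and can activate other proenzymes of the family. It is a gene of low level in this tissue. The ND mice had 0.564, 0.482 and 0.866 FPKM and the HFD mice 4.03, 5.07 and 3.27 FPKM. The CLE mice had 1.09, 1.70 and 1.87 FPKM and the LU mice 1.74, 1.29 and 1.46 FPKM. The HFD mice were thus highest, the ND mice lowest, and the CLE and LU mice overlapped each other only. The mean FPKM was 6.47-fold higher in the HFD than in the ND group, with a log2(FPKM + 1) difference of 1.64 ± 0.15 (adjusted p = 7.5e-06). The difference from the HFD group was -1.003 ± 0.15 in CLE mice (adjusted p = 0.00054) and -1.03 ± 0.15 in LU mice (adjusted p = 0.00080), at 0.377 and 0.363 times the HFD mean FPKM.

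The 2 gelatinases, which degrade denatured collagen and basement membrane collagen, moved in opposite directions. *Mmp2* (chr8:92827291-92853420) stood at 23.0, 15.7 and 12.4 FPKM in the ND mice, whereas the HFD mice had 61.5, 46.7 and 49.9 FPKM. It was 18.6, 20.9 and 20.3 FPKM in CLE mice and 26.2, 28.1 and 22.02 FPKM in LU mice. Only the HFD mice stood apart from all other mice, and the CLE range lay inside the ND range. *Mmp9* (chr2:164940780-164955850) was a gene of low level and was highest in ND mice, with 2.79, 3.94 and 2.64 FPKM. It was 0.556, 0.804 and 0.538 FPKM in HFD mice, 2.21, 1.66 and 1.17 FPKM in CLE mice and 2.67, 1.73 and 0.986 FPKM in LU mice. Each HFD mouse was below every mouse of the other groups.

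On the log2 scale *Mmp2* was higher by 1.61 ± 0.18 in the HFD than in the ND group (adjusted p = 3.0e-05), and *Mmp9* differed by -1.33 ± 0.21 (adjusted p = 0.00033). The mean FPKM of *Mmp9* in HFD mice was 0.202 times that in ND mice. Compared with the HFD group, *Mmp2* differed by -1.35 ± 0.18 in CLE mice (adjusted p = 0.00025) and by -1.02 ± 0.18 in LU mice (adjusted p = 0.0024). *Mmp9* differed by 0.70 ± 0.21 in CLE mice and by 0.73 ± 0.21 in LU mice, both at an adjusted p of 0.024, and its mean FPKM was 2.66-fold and 2.84-fold that of HFD mice. The *Mmp9* calls against the HFD group depended on single mice. That in CLE mice was lost without HFD mouse 12 or 18 or CLE mouse 2 or 4 (adjusted p = 0.063 to 0.093), and that in LU mice without HFD mouse 12 or 18 or LU mouse 2 or 3 (adjusted p = 0.066 to 0.086). Among 8 neutrophil markers, *Ngp* and *Cxcr2* were under 0.1 FPKM in all 12 mice, and of the 3 that were tested, 2 were called higher and 1 lower in HFD than in ND mice. The markers called higher were *S100a8* (mean 10.2 FPKM in ND and 101 FPKM in HFD mice) and *Csf3r* (0.964 and 3.90 FPKM), opposite to *Mmp9*. The marker called lower, like *Mmp9*, was *S100a9* (1.42 and 0.381 FPKM). Summed over the 8 markers, mostly *S100a8*, the level was 7.15 to 15.9 FPKM in ND, 74.1 to 123 FPKM in HFD, 14.5 to 28.6 FPKM in CLE and 23.1 to 55.5 FPKM in LU mice, and its part in the *Mmp9* values was not tested.

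*Mmp14* (chr14:54431612-54445364) encodes the membrane-type MMP that activates pro-MMP2. Its level was 23.5, 18.2 and 18.1 FPKM in ND mice, 40.0, 36.5 and 41.7 FPKM in HFD mice, 20.6, 21.3 and 22.2 FPKM in CLE mice and 24.1, 28.1 and 22.3 FPKM in LU mice. The HFD mice were again above all others, and the ND mice overlapped both supplemented groups. The log2 difference was 0.96 ± 0.12 between the HFD and the ND group (adjusted p = 4.7e-05). Against the HFD group it was -0.85 ± 0.12 in CLE mice (adjusted p = 0.00025) and -0.65 ± 0.12 in LU mice (adjusted p = 0.0022). Without LU mouse 8 the last of these was -0.58 and no longer passed the fold threshold. The levels of *Mmp14* and *Mmp2* correlated at r = 0.981 over the 12 libraries, a value that includes the differences between the 4 groups.

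*Mmp19* (chr10:128790910-128800824) encodes a secreted protease of basement membrane proteins. It was 7.21, 9.92 and 7.72 FPKM in ND mice, 29.3, 29.4 and 27.5 FPKM in HFD mice, 9.10, 8.96 and 17.4 FPKM in CLE mice and 14.2, 11.5 and 16.0 FPKM in LU mice. The 3 HFD mice lay close together above all others, and CLE mouse 11 was again the highest of its group. The log2 difference between the HFD and the ND group was 1.69 ± 0.21 (adjusted p = 6.2e-05). Compared with the HFD group it was -1.27 ± 0.21 in CLE mice (adjusted p = 0.00094) and -1.01 ± 0.21 in LU mice (adjusted p = 0.0055). The opposite-strand gene *Tmem198b* shares 22.3% of the exonic bases of *Mmp19*. It had 8.12 to 9.04 FPKM in ND, 12.1 to 12.8 FPKM in HFD, 7.004 to 9.71 FPKM in CLE and 9.79 to 11.2 FPKM in LU mice. Like *Mmp19*, it was thus highest in the HFD mice. The use of strand in counting is not given in the sources used here, so part of the reads of one gene could count for the other.

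**Figure D1:**
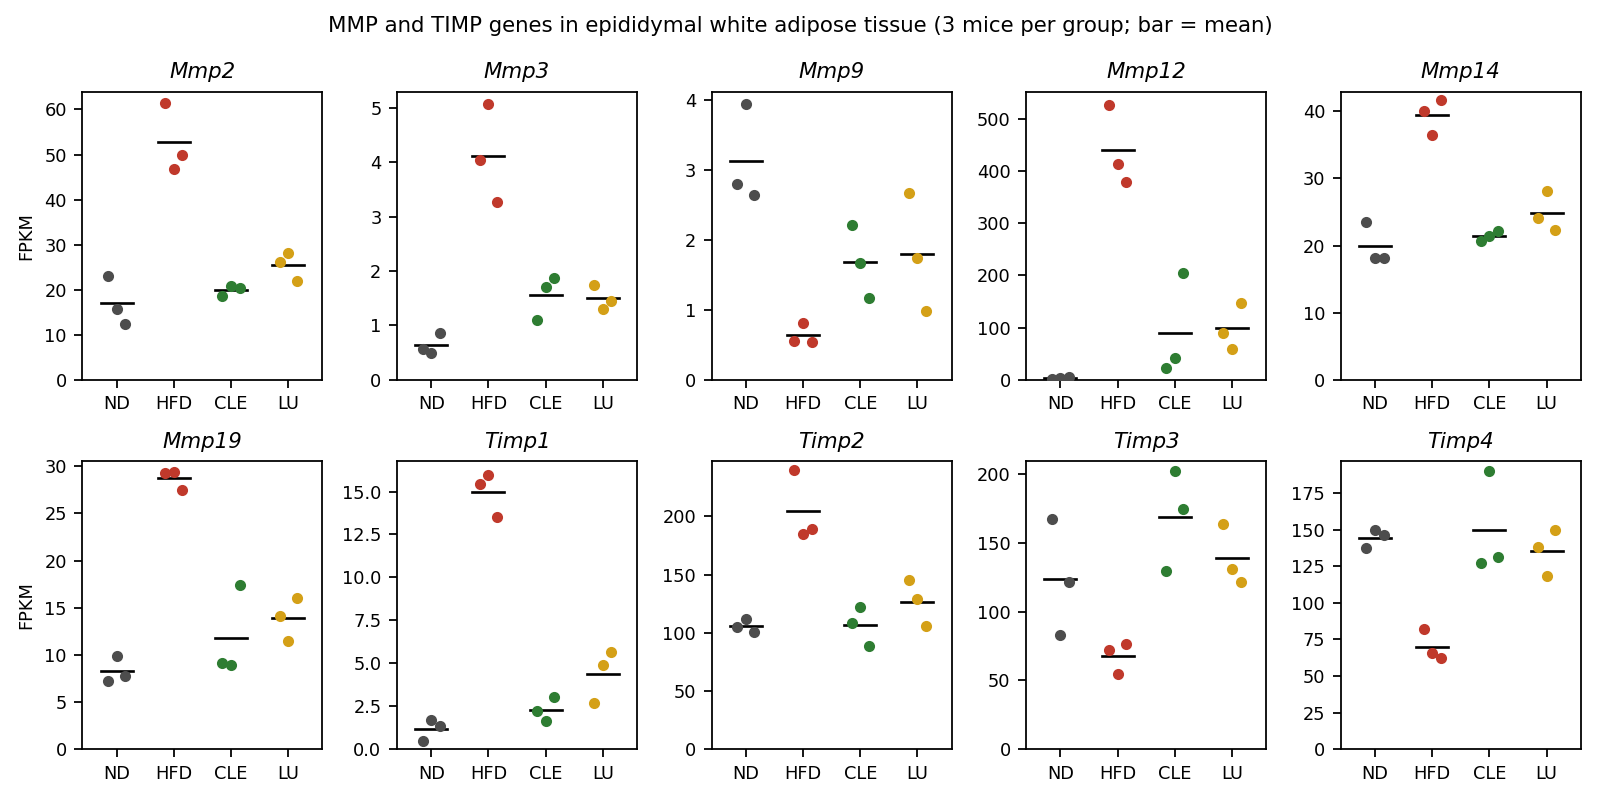
FPKM of each of the 10 genes (vertical axis, starting at 0) in the ND, HFD, CLE and LU groups, with 1 point per mouse and a bar at the mean of 3 mice. In every panel the 3 HFD points lie outside the ranges of the other groups, above them for 7 genes and below them for *Mmp9*, *Timp3* and *Timp4*.

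Among the inhibitors, *Timp1* (chrX:20870166-20874735), an inducible secreted TIMP, was the least abundant and had the largest fold change. It was 0.487, 1.68 and 1.37 FPKM in ND mice, 15.4, 16.0 and 13.5 FPKM in HFD mice, 2.21, 1.65 and 3.04 FPKM in CLE mice and 2.68, 4.88 and 5.64 FPKM in LU mice. The HFD mice stood far above the rest, and the LU mice were above all ND mice. The log2 difference between the HFD and the ND group was 2.91 ± 0.25 (adjusted p = 4.1e-06), and the mean FPKM was 12.7-fold higher. It differed from the HFD group by -2.29 ± 0.25 in CLE mice (adjusted p = 6.5e-05) and by -1.60 ± 0.25 in LU mice (adjusted p = 0.0010), at 0.154 and 0.294 times the HFD mean FPKM.

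*Timp2* (chr11:118301069-118355740) encodes the TIMP that binds pro-MMP2. It was 105, 111 and 101 FPKM in ND mice, 239.7, 185 and 189 FPKM in HFD mice, 108.5, 122 and 89.0 FPKM in CLE mice and 145, 129 and 106 FPKM in LU mice. Every HFD mouse was above every mouse of the other groups, and the ND range lay inside the CLE range. The log2 difference was 0.94 ± 0.15 between the HFD and the ND group (adjusted p = 0.00031). It was -0.94 ± 0.15 between the CLE and the HFD group (adjusted p = 0.00063) and -0.69 ± 0.15 between the LU and the HFD group (adjusted p = 0.0058). The last of these fell below the fold threshold without HFD mouse 12 (-0.57) or LU mouse 8 (-0.57).

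The other 2 inhibitors were lower in HFD mice. *Timp3* (chr10:86300372-86349506) encodes the TIMP that is bound to the matrix and also inhibits ADAM17. It was 167, 83.3 and 122 FPKM in ND mice, 71.8, 54.7 and 76.5 FPKM in HFD mice, 129.6, 202 and 175 FPKM in CLE mice and 164, 131 and 122 FPKM in LU mice. ND mouse 3 was close to the HFD range. The log2 difference between the HFD and the ND group was -0.82 ± 0.24 (adjusted p = 0.014), and this call was lost without ND mouse 2 (-0.58, adjusted p = 0.058) or HFD mouse 15 (-0.68, adjusted p = 0.059). Compared with the HFD group, *Timp3* was higher by 1.30 ± 0.24 in CLE mice (adjusted p = 0.0018) and by 1.03 ± 0.24 in LU mice (adjusted p = 0.0092).

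*Timp4* (chr6:115241892-115252205) encodes a TIMP known for its high expression in fat and heart. It was 137, 149.7 and 147 FPKM in ND mice, 82.3, 65.7 and 62.3 FPKM in HFD mice, 127, 190.3 and 132 FPKM in CLE mice and 138, 118 and 149.99 FPKM in LU mice. The HFD mice were below all others, which overlapped one another. The log2 difference was -1.04 ± 0.16 between the HFD and the ND group (adjusted p = 0.00024), 1.07 ± 0.16 between the CLE and the HFD group (adjusted p = 0.00042) and 0.94 ± 0.16 between the LU and the HFD group (adjusted p = 0.0015). The summed FPKM of 8 adipocyte markers moved the same way, with 33015 to 35213 in ND, 15812 to 17975 in HFD, 25659 to 28731 in CLE and 24677 to 29658 in LU mice. The largest part of this sum was *Fabp4*, at 19234 to 20210 FPKM in ND and 10463 to 11876 FPKM in HFD mice. In HFD against ND mice, 7 of these 8 markers were called lower. Compared with HFD mice, 7 of the 8 were called higher in CLE mice and 4 in LU mice. The part of the adipocyte markers in the *Timp3* and *Timp4* values was not tested.

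In total, 7 members were called higher and 3 lower in the HFD than in the ND group, where 25.6% of all tested genes were called, 14.9% higher and 10.8% lower. All 10 members were called in the opposite direction in CLE mice compared with HFD mice and in LU mice compared with HFD mice, 3 higher and 7 lower each time. Of all tested genes, 16.5% were called in CLE against HFD mice (6.33% higher, 10.1% lower) and 12.4% in LU against HFD mice (4.8% higher, 7.65% lower). In these 3 comparisons the values of the groups did not overlap for any member, which also held for 59.5%, 50.6% and 47.7% of all genes tested. The 3 comparisons share the HFD mice, so the opposite directions are not independent of each other. In the 8 libraries without the letter R, 9 members were called in CLE and 8 in LU against HFD mice, *Mmp12* being lost in both and *Mmp9* in LU mice. Of 12576 genes tested there, 1898 and 1474 were called. The ND group keeps only mouse 2 there, so no count is given for HFD against ND mice. With all 12 libraries, the median log2 difference over the 10 members was 1.28, -0.97 and -0.85 in the 3 comparisons. The medians over all tested genes were -0.02, 0.01 and 0.03.

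**Figure D2:**
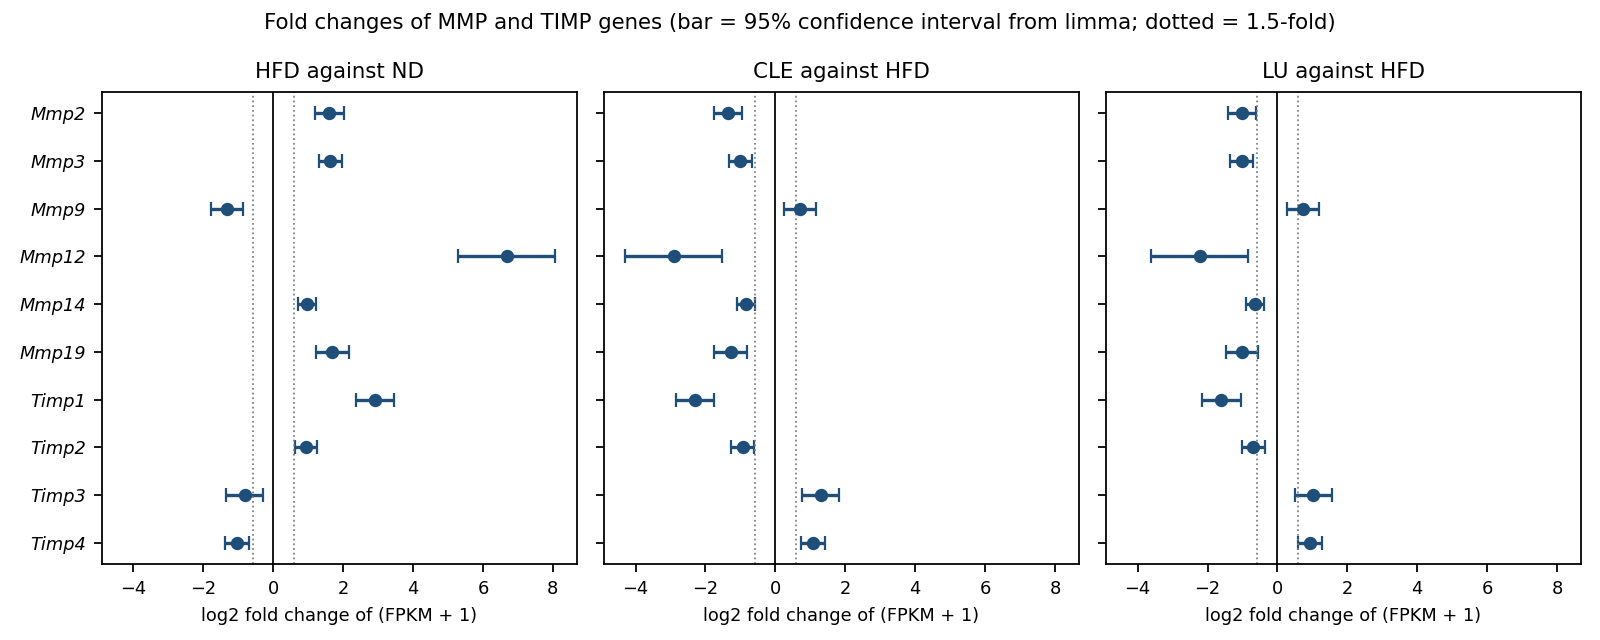
Log2 fold change of (FPKM + 1) on the horizontal axis for each gene in 3 comparisons, with 95% confidence intervals from limma and dotted lines at 1.5-fold. *Mmp9*, *Timp3* and *Timp4* lie left of 0 in the first panel and right of 0 in the other two, and the other 7 genes lie on the opposite side, with *Mmp12* farthest from 0.

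The CLE and LU groups were next compared with the ND group, which had no fat-rich diet. Of the 10 members, 2 were called higher in CLE than in ND mice and 3 in LU than in ND mice, and none was called lower. Of all tested genes, 2.92% were called in CLE against ND mice (2.07% higher, 0.854% lower) and 6.59% in LU against ND mice (4.97% higher, 1.62% lower). *Mmp12* differed from the ND group by 3.77 ± 0.63 in CLE mice (adjusted p = 0.014) and by 4.46 ± 0.63 in LU mice (adjusted p = 0.0018), with mean FPKM 26.2-fold and 29.0-fold higher. The CLE mean was carried by mouse 11, without which the difference in CLE mice was 2.85 (adjusted p = 0.023). Without ND mouse 2 it was 3.53 at an adjusted p of 0.0502. *Mmp3* differed by 0.63 ± 0.15 in CLE mice (adjusted p = 0.040) and by 0.61 ± 0.15 in LU mice (adjusted p = 0.024), with mean FPKM 2.44-fold and 2.35-fold higher. The *Mmp3* call in CLE mice was lost without ND mouse 2 or 3, HFD mouse 12, CLE mouse 4 or 11, or LU mouse 2 (adjusted p = 0.053 to 0.12), and that in LU mice without ND mouse 2 or 3 or LU mouse 2 or 8 (adjusted p = 0.069 to 0.086). *Timp1* was higher in LU than in ND mice by 1.31 ± 0.25 (adjusted p = 0.0073) and 3.73-fold in mean FPKM, a call that every leave-one-out fit made. In the 8 libraries without the letter R, where a lone ND mouse was assumed to vary like the other groups, *Mmp12* differed from ND by 4.48 in CLE mice (adjusted p = 0.098) and by 4.95 in LU mice (adjusted p = 0.052), and *Timp1* was the member called in both.

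For the other members no difference from the ND group passed the test. Over all 10 members, the groups did not overlap for 3 in CLE against ND mice (24.7% of all genes) and for 4 in LU against ND mice (30.1% of all genes). Apart from the members called, these were *Mmp9* in CLE mice and *Mmp19* in LU mice. *Timp4* differed from the ND group by 0.03 in CLE mice (95% interval -0.32 to 0.37) and by -0.10 in LU mice (-0.45 to 0.25). *Timp2* differed by -0.00024 in CLE mice (-0.32 to 0.32) and by 0.25 in LU mice (-0.076 to 0.57). *Mmp9*, whose CLE mice all lay below the ND mice, differed by -0.63 (-1.09 to -0.17, adjusted p = 0.10) in CLE and by -0.59 (-1.06 to -0.13, adjusted p = 0.090) in LU mice, at 0.538 and 0.574 times the ND mean FPKM. *Timp1* differed by 0.62 in CLE mice (0.072 to 1.17, adjusted p = 0.16), with mean FPKM 1.95-fold higher. *Mmp2* and *Mmp19* differed in LU mice by 0.59 and 0.68 at an adjusted p of 0.058 for both, and all LU mice were above the ND mice for *Mmp19*. The intervals leave room for differences of over 1.5-fold in both groups for *Mmp2*, *Mmp9*, *Mmp19* and *Timp3*, and in CLE mice for *Timp1*.

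No member passed the limma test between the CLE and LU groups, where 1 of the 12760 genes (0.00784%) did. At an unadjusted p under 0.05, 1 member, *Timp1*, and 672 genes (5.27%) differed. For *Timp1* the limma log2 difference of CLE from LU mice was -0.69 (95% interval -1.24 to -0.14, with an unadjusted limma p of 0.019 and an adjusted p of 0.89), and the exact permutation p was 0.2. The CLE mice were all below the LU mice for *Mmp2* (difference -0.33, interval -0.74 to 0.071) and for *Mmp14* (-0.20, interval -0.45 to 0.054), where a lack of overlap in either direction held for 9.03% of all genes. The interval for *Mmp12* was wide, -2.07 to 0.70. The extract and the compound were given at different doses, and neither result shows that they act alike.

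The make-up of the MMP and TIMP transcripts differed with diet. The 6 MMP genes summed to 46.5 to 59.1 FPKM in ND mice and to 502 to 662 FPKM in HFD mice. In CLE mice 2, 4 and 11 the sum was 73.2, 95.5 and 268 FPKM, and in LU mice it was 130.3 to 209.9 FPKM. *Mmp12* made up 3.49% to 10.4% of the sum in ND mice, 75.5% to 79.5% in HFD mice, 29.4% to 76.5% in CLE mice and 45.8% to 70.1% in LU mice. Without *Mmp12*, the other 5 summed to 41.7 to 57.1 FPKM in ND, 119 to 135 FPKM in HFD, 51.6 to 63.0 FPKM in CLE and 62.8 to 70.7 FPKM in LU mice. The high sum of CLE mouse 11 was therefore that of *Mmp12*.

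The 4 TIMP genes together changed less, and members of the family moved against each other. Their sum was 346 to 409 FPKM in ND, 321 to 409 FPKM in HFD, 367 to 516 FPKM in CLE and 383 to 449.7 FPKM in LU mice, and these ranges overlapped. *Timp2* made up 55.3% to 58.6% of the TIMP sum in HFD mice and 22.3% to 33.7% in the other 9 mice. *Timp3* and *Timp4* together were 0.643 to 0.735 times *Timp2* in HFD mice and 1.93 to 3.44 times *Timp2* in the others. The ratio of the MMP to the TIMP sum was 0.125 to 0.149 in ND, 1.47 to 1.66 in HFD, 0.185 to 0.673 in CLE and 0.340 to 0.548 in LU mice. *Mmp12* weighs heavily in this ratio, with 75.5% to 79.5% of the MMP sum in HFD and 29.4% to 76.5% in CLE mice. Without *Mmp12*, the MMP sums of ND (41.7 to 57.1 FPKM) and CLE mice (51.6 to 63.0 FPKM) overlapped, and those of HFD mice were 119 to 135 FPKM. The ratios are of transcript levels, and protein or enzyme activity was not measured.

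**Figure D3:**
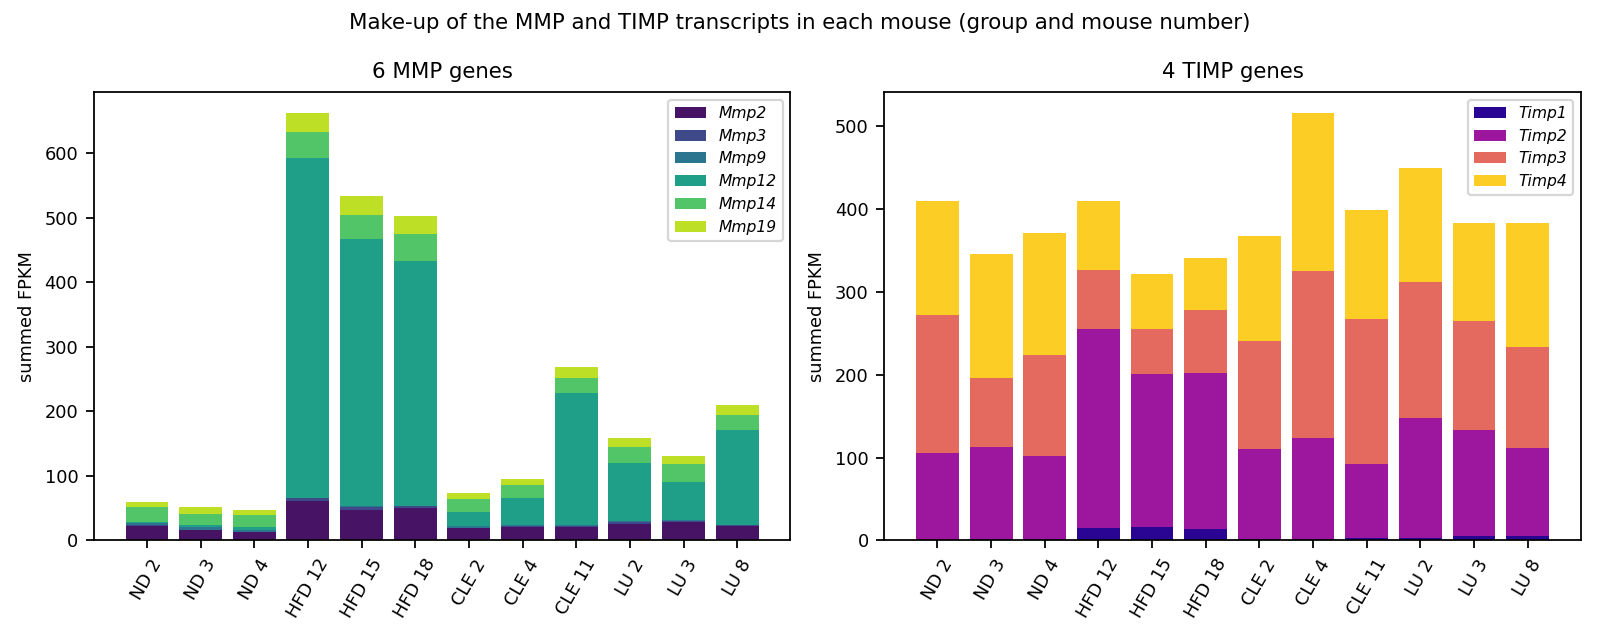
Summed FPKM (vertical axis, starting at 0) of the 6 MMP genes on the left and the 4 TIMP genes on the right, with 1 stacked bar for each of the 12 mice, named by group and mouse number. *Mmp12* fills most of the bars of the HFD mice, of CLE mouse 11 and of LU mice 2 and 8, and *Timp2* takes 55.3% to 58.6% of the TIMP sum in HFD mice.

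The table lists annotated transcripts and transcripts assembled from the reads, and the rows of 1 gene did not always move together. For *Mmp19*, the annotated row ENSMUST00000026411 had 3.48 to 4.87 FPKM in ND and 24.0 to 26.9 FPKM in HFD mice. The main assembled row of *Mmp19*, which starts upstream of it, had 3.38 to 5.05 FPKM in ND, 2.46 to 3.51 FPKM in HFD, 2.76 to 3.65 FPKM in CLE and 3.06 to 4.62 FPKM in LU mice. As the values are split, the diet difference of *Mmp19* was that of the annotated row. The annotated row held 45.1% to 53.2% of the gene's FPKM in ND mice and 87.2% to 91.6% in HFD mice. How reads were shared between these rows, which end at the same base, was not tested. For *Mmp14*, the annotated row was 5.97 to 10.9 FPKM in ND and 19.5 to 24.3 FPKM in HFD mice, and the largest assembled row was 7.76 to 9.63 and 13.9 to 14.8 FPKM. Both *Mmp14* rows were higher in each HFD mouse than in each ND mouse. The annotated row was 9.08 to 11.1 FPKM in CLE and 9.06 to 11.8 FPKM in LU mice, below every HFD mouse. The assembled row was 7.22 to 12.3 FPKM in CLE and 9.78 to 15.6 FPKM in LU mice. For this row LU mouse 3, at 15.6 FPKM, was above every HFD mouse.

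*Timp2* had a minor annotated row, ENSMUST00000155707, at 3.16 to 6.49 FPKM in the 3 HFD mice and 4.01 FPKM in LU mouse 2, and below 0.0001 FPKM in the other 8 mice. Its assembled counterpart with the same introns had 22.7 to 34.8 FPKM in ND and 63.5 to 85.1 FPKM in HFD mice. How Cufflinks shared reads between rows this alike was not tested, and values near 0 can be failed estimates. *Mmp12* was spread over 14 rows, of which ENSMUST00000065079 held 29.0% to 43.9% of the gene. The 3 leading *Mmp12* rows were each at 0.474 to 2.11 FPKM in ND mice and at 78.9 to 228 FPKM in HFD mice. *Mmp3* and *Timp4* had a single row each.

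**Figure D4:**
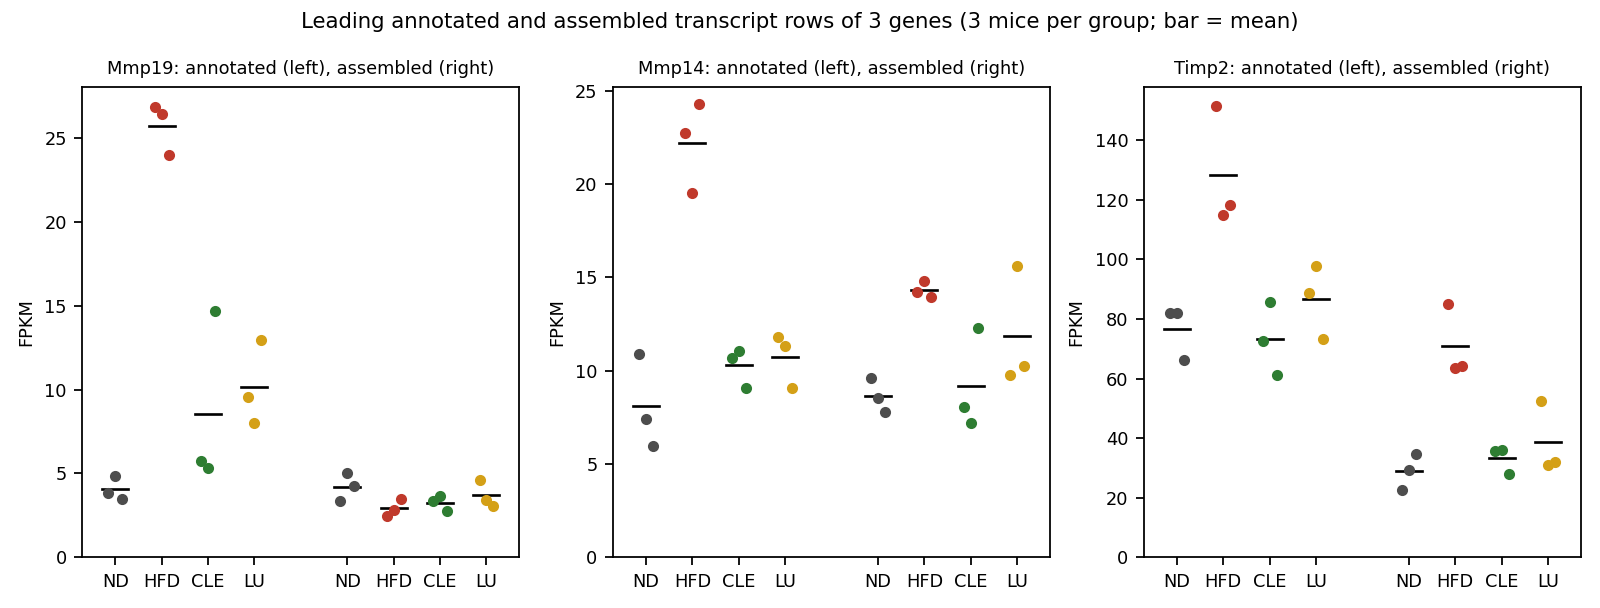
FPKM (vertical axis, starting at 0) of the leading annotated row (left side of each panel) and the leading assembled row (right side) of *Mmp19*, *Mmp14* and *Timp2* in the 4 groups, with 1 point per mouse and a bar at the mean. The assembled row of *Mmp19* stays between 2.46 and 5.05 FPKM in all 12 mice while the annotated row reaches 24.0 to 26.9 FPKM in HFD mice.

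Of the TIMP genes, 3 lie on the opposite strand within a synapsin gene, *Timp1* in *Syn1*, *Timp3* in *Syn3* and *Timp4* in *Syn2*. *Syn2* was highest, at 1.76 to 3.97 FPKM, far below *Timp4*. *Syn3* shares 21.3% of the exonic bases of *Timp3* and was at 0.263 to 0.528 FPKM. *Syn1* shares none of the exonic bases of *Timp1* and had 0.117 to 0.218 FPKM in ND, 1.02 to 1.23 FPKM in HFD, 0.232 to 0.518 FPKM in CLE and 0.393 to 0.639 FPKM in LU mice. It passed the filter through the HFD mice alone, so no test of it is given.

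Macrophage markers moved with 7 of the members and against the other 3. The 10 macrophage markers (*Adgre1*, *Cd68*, *Csf1r*, *Itgam*, *Itgax*, *Mrc1*, *Cd163*, *Cd14*, *Mpeg1* and *Trem2*) summed to 101 to 148 FPKM in ND, 1113 to 1356 FPKM in HFD, 203 to 360.5 FPKM in CLE and 319 to 436 FPKM in LU mice. Of these 10 markers, 9 were called higher in HFD than in ND mice, 9 lower in both supplemented groups than in HFD mice, and 7 and 8 higher in CLE and LU than in ND mice. CLE mouse 11 and LU mouse 8, which had the most *Mmp12* of their groups, also had the highest marker sums of their groups, 360.5 and 436 FPKM. *Adgre1*, *Cd68*, *Itgax*, *Mpeg1* and *Trem2* were each highest of their groups in both mice. *Mrc1* and *Cd163* were instead lowest of their groups in both mice, as *Cd14* was in CLE mouse 11. The part of macrophage content in the MMP and TIMP values was not tested. For progenitor and fibroblast markers, whose sums overlapped between ND (664 to 900 FPKM) and HFD mice (597 to 716 FPKM), 1 was called higher and 1 lower of 8 tested. Endothelial markers were called higher for 4 of 7 in CLE and 5 of 7 in LU mice compared with HFD mice, as *Timp3* and *Timp4* were. Only 2 of these 7 markers were called lower in HFD than in ND mice, where *Timp3* and *Timp4* were both called lower. The part of endothelial markers in these values was not tested. Mesothelial markers were called lower for 6 of 8 in HFD than in ND mice. Compared with HFD mice, 1 of the 8 was called higher in CLE mice and 1 in LU mice. T cell markers stayed at sums of 5.00 to 14.3 FPKM and epididymis markers at 0.0759 to 5.76 FPKM in all mice. Adipocyte markers, which define the labelled tissue, summed to 15812 FPKM or more in every library.

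**Figure D5:**
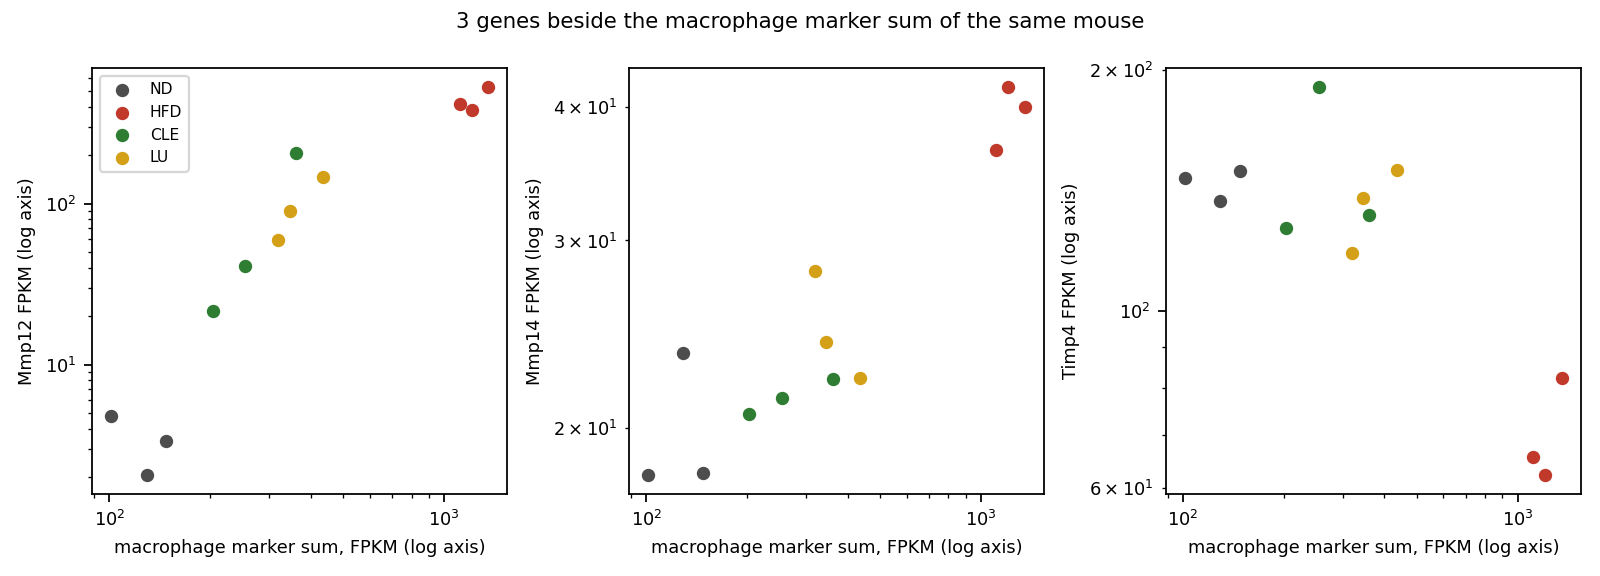
FPKM of *Mmp12*, *Mmp14* and *Timp4* (vertical log axes) against the summed FPKM of 10 macrophage markers in the same mouse (horizontal log axes), with 1 point per mouse coloured by group. The HFD mice, at sums of 1113 to 1356 FPKM, lie apart from the other 9 mice, with the most *Mmp12* and *Mmp14* and the least *Timp4*.

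For each member the tested genes with the most similar pattern (3 for each, of which 2 are given for *Mmp19*) were found by the Pearson correlation of log2(FPKM + 1) over the 12 libraries, a measure that includes the group differences. For *Mmp12* they were *Tnfrsf21* (r = 0.991), *Rgs1* (0.986) and *Fam198b* (0.986), and *Rgs1* had mean levels of 0.331, 61.4, 9.89 and 14.2 FPKM in the ND, HFD, CLE and LU groups. For *Mmp2* they were *Spred1* (0.992), *Ifi207* (0.988) and *Cd300ld3* (0.977), and for *Mmp14* *Wdfy4* (0.977), *Cbfb* (0.977) and *Tfec* (0.973). *Mmp19* was closest to *Stac2* (0.994) and *Mfsd12* (0.990), and *Mmp3* to *Cnr2* (0.975), *St3gal5* (0.971) and *Acp2* (0.969). *Timp1* was closest to *Srd5a3* (0.992), *Hexa* (0.990) and *Rgs10* (0.988), and *Timp2* to *Lgi2* (0.975), *Lamp2* (0.968) and *Atp7a* (0.959). The 3 members that were lowest in HFD mice had partners lower there as well, which choosing them by correlation largely fixes in advance. These were *Dock11* (0.964), *Serpina1a* (0.963) and *Tmem220* (0.959) for *Mmp9*, *Cyyr1* (0.968), *Zbtb46* (0.965) and *Tinagl1* (0.965) for *Timp3*, and *Nexn* (0.960), *Zfp820* (0.947) and *Sdf4* (0.947) for *Timp4*.

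Other genes of the proteolytic system were described from fixed lists. Of 17 other MMP genes, 6 passed the filter, and in HFD against ND mice 1 was called higher and 1 lower. *Mmp28*, or epilysin, was the one called lower, by a difference of -0.68 ± 0.11 (mean 31.5 and 19.3 FPKM), and it was called higher in CLE and in LU mice than in HFD mice. *Mmp13*, a collagenase, was the one called higher (mean 0.136 and 1.39 FPKM), but it passed the filter through the HFD mice alone, so its call says little. In the list of the plasminogen system and MMP regulators, 3 of 12 tested genes were called higher and 1 lower in HFD mice, a share near the 25.6% called over all genes. *Plaur*, the urokinase receptor, differed by 1.30 ± 0.26 and *Plau*, urokinase itself, by 1.28 ± 0.15, while *Spock2*, a matrix proteoglycan, differed by -0.97 ± 0.32. In CLE and in LU mice, *Plau* and *Plaur* were called lower than in HFD mice.

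Of 17 tested ADAM and ADAMTS proteases, relatives of the MMPs that shed membrane proteins or cut proteoglycans, 8 were called higher and 2 lower in HFD than in ND mice. The largest rises were those of *Adam8* (5.09 ± 0.48) and *Adam19* (1.33 ± 0.12), and the falls were those of *Adamts10* (-1.05 ± 0.13) and *Adam33* (-0.87 ± 0.16). Of 9 cysteine cathepsins, lysosomal proteases that can also cut matrix, 6 were called higher and none lower, led by *Ctss* (3.84 ± 0.31) and *Ctsk* (3.45 ± 0.27). All 6 were called lower in CLE and in LU mice than in HFD mice. Compared with the ND group, 1 of the 9 cathepsins was called higher in CLE mice and 6 in LU mice. Between the CLE and LU groups none of the 9 was called.

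Among 20 genes of matrix proteins that MMPs cut, 14 were called higher and none lower in HFD than in ND mice, led by *Spp1*, or osteopontin (4.58 ± 0.38), and *Col1a1*, a chain of collagen I (2.12 ± 0.17). In CLE against HFD mice 12 of the 20 were called lower and 1 higher, and in LU against HFD mice 9 were called lower and 1 higher. Compared with the ND group, none of the 20 was called in CLE mice and 13 were called higher in LU mice. The difference between the CLE and LU groups itself was called for none of the 20.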

How the data were processed

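mRNA of eWAT from 12 mice was sequenced by the submitters as paired-end TruSeq libraries. The submitters' processing notes name CASAVA 1.8.2, Bowtie2 2.2.3, TopHat2 2.0.12 and Cufflinks 2.2.1. The genome build is not given in the sources used here. The deposited values are FPKM per transcript row, normalised by the authors to transcript length and library size, and 87.6% of the annotated rows found in GENCODE M21 have the same start and end in that GRCm38 annotation. The table has 152210 rows. Rows with an Ensembl transcript identifier, annotated or assembled with the same or partly new introns, were summed per GENCODE symbol (22855 genes), and 11915 rows were left out. The table has 15 columns of FPKM, of which 3 match no sample and were not used. Columns with the authors' own fold changes and p-values were not used.

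Genes with at least 1 FPKM in at least 3 libraries (12760) were tested in Python 3.11.15 and R 4.3.3 with limma 3.58.1 on log2(FPKM + 1), with 4 groups of 3 mice in 1 fit, 6 comparisons and Benjamini-Hochberg adjustment over all genes tested in each. A single value was also compared by a two-sided exact permutation test. The scripts were tested on simulated data. Nothing in the labels says that libraries of a group are repeats of 1 mouse, and no 2 held the same values. The number of reads is unknown, so precision rests on the spread between 3 mice. The members and gene lists were chosen with earlier results of these data known. Genes were named by a fixed rule: all members, the 3 genes most correlated with each, and, from each list, the called genes with the 2 largest rises and falls between HFD and ND mice. 1 gene that this rule names is not reported here. Cell type markers are given as sums and counts. Alternatives covered the pseudocount (0.1), the filter, the scaling, the transcript rows, the groups in the fit, the letter R in some sample titles and leaving out each mouse.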

Additional observations from a re-analysis of the deposited data

How the results depend on the processing

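Each of the 10 genes was fitted in 6 comparisons under up to 27 alternatives. *Mmp3* and *Mmp9* have no value with a mean filter of 5 FPKM. In HFD against ND mice, no member changed direction, and 266 of 268 values kept their call. In CLE and LU against HFD mice, no direction changed and 261 and 250 of 268 values kept their call. The number of members called was 8 to 10 in HFD against ND, 8 to 10 in CLE against HFD, 7 to 10 in LU against HFD, 0 to 2 in CLE against ND, 1 to 4 in LU against ND and 0 in CLE against LU mice.

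In CLE against ND mice, 1 member instead of 2 was called with no filter, with the mean filter of 5 FPKM, with quantile normalization, with array weights, with the highest row of each gene, without the assembled rows of class code j and in the 8 libraries whose titles lack the letter R, an alternative chosen after seeing the data. With only the 2 groups compared in the fit it was 0. Leaving out 1 mouse gave 0 to 2 members called in CLE against ND mice, with 0 without ND mouse 2. It gave 9 to 10 in HFD against ND, 9 to 10 in CLE against HFD, 7 to 10 in LU against HFD, with 7 without HFD mouse 12, and 2 to 4 in LU against ND mice. In the 8 libraries without the letter R, 9 members were called for the extract and 8 for luteolin relative to HFD mice. Comparisons with the ND group rest there on ND mouse 2 alone. No HFD library carries the letter R.

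Signs changed only for members that passed no test. *Timp2* in CLE against ND mice was -0.00024 and became 0.024 with equal totals, 0.0018 with median ratios, 0.049 with quantile normalization, 0.077 with array weights, 0.071 with the letter R as a covariate, 0.010 with the replicate block, and -0.10 to 0.12 without 1 mouse (0.038 without ND mouse 3). In the 8 libraries without the letter R, CLE against ND mice gave -0.13 for *Mmp14*, -0.23 for *Mmp2*, -0.15 for *Timp3* and -0.084 for *Timp4*, LU against ND mice gave -0.40 for *Timp3*, and CLE against LU mice gave 0.18 for *Mmp9* and -0.041 for *Timp4*. With quantile normalization *Mmp9* in CLE against LU mice was 0.043. Leaving out 1 mouse gave -0.16 to 0.13 for *Timp4* in CLE against ND, -0.051 to 0.45 for *Timp3* in LU against ND, and in CLE against LU mice -0.067 to 0.16 for *Mmp3*, -0.26 to 0.18 for *Mmp9* and -0.059 to 0.23 for *Timp4*. Values without 1 mouse were -0.010 (ND 2) and -0.16 (CLE 4) for *Timp4* in CLE against ND, and in CLE against LU -0.059 (CLE 4) for *Timp4*, -0.023 (CLE 4), -0.067 (CLE 11) and -0.036 (LU 3) for *Mmp3*, and 0.11 (CLE 11) and 0.18 (LU 2) for *Mmp9*. The cause was not tested.

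Over all genes, 373 were called in CLE against ND mice, and 119 to 230 without ND mouse 2, CLE mouse 4 or CLE mouse 11, with no filter, with the highest row, without class code j or without the letter R libraries, and 0 in the fit of the 2 groups. By adjusted p alone the counts were 6439, 4293, 3425, 661 and 1633 in the first 5 comparisons, against 3269, 2103, 1588, 373 and 841 with the fold threshold.

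Mouse numbers are shared between some groups (2, 3 and 4) but name different mice. Deviations of same-numbered mice from their group means correlated at r = -0.0998 to 0.189, not above 0.1 for every pair ( consensus correlation 0.087), and with the number as a replicate block the counts stayed at 10, 10, 10, 2, 3 and 0. Depth is unknown, which limits *Mmp3*, *Mmp9* and *Timp1* near 1 FPKM most.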
